A study of Mus musculus with 45 samples.

Results

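Dppa2 and Dppa4 (developmental pluripotency associated 2 and 4) were described here across all groups of the series. Both were taken by name from the tables that carry gene symbols and by Ensembl identifier from the table that does not, which gave 2 of the 55401 gene rows. The encoded proteins are small nuclear factors with a SAP domain, a DNA-binding fold, and they bind chromatin as a heterodimer. In mouse embryonic stem cells (mESCs) the pair is known as an activator of Dux and of transcripts of zygotic genome activation, upstream of the 2-cell-like state. The same pair is known for keeping the promoters of a set of developmental and germline genes free of DNA methylation. 2-cell-like cells (2CLCs) are the rare cells of an mESC culture that switch on the endogenous retrovirus MERVL and the genes of the 2-cell embryo.

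RNA-seq was made of 45 libraries in 15 groups of 3. In EHMT2-dTAG-mcherry mESCs of BL6/129 background, the histone H3 lysine 9 methyltransferase EHMT2 carries a degron, mCherry and an HA tag on its own gene, and dTAG-13 removes the protein. DMSO controls carry the same allele. A time course held DMSO and dTAG for 24 h and for 7 d, and a washout experiment held DMSO for 15 d, dTAG for 15 d and Recovery, which is 7 d of dTAG and then 8 d without it. The labels name clones E2-17, E2-20 and E2-K71 for both experiments. In the sorting experiment the same allele was combined with a MERVL-GFP reporter, and after 72 h of DMSO or dTAG the GFP-negative cells were collected as mESC and those with GFP as 2CLC. The sort used MERVL itself, so MERVL is no finding between those cells. In the Dppa4 experiment WT J1 mESCs and mESCs depleted of DPPA4 by CRISPR/Cas9 (Dppa4 KO), given as 3 independent clones of each genotype, were grown for 48 h with DMSO or with UNC0638, which inhibits the catalytic activity of EHMT2 and its partner EHMT1. Cells were kept in serum and LIF, and the study's methods give a layer of mitotically inactive fibroblast feeders.

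Gene reads per library could be recovered for the 12 libraries of the Dppa4 experiment and ran from 8399885 to 12710949. The other 33 libraries were represented by the authors' means of 3 libraries, which carry no spread, so ratios between them are given without a test. Each table was normalized separately. The 6 pluripotency markers summed to between 2043 and 5260 CPM (counts scaled to the total over genes) in the groups and libraries outside the 2CLC sort. In the DMSO sort the 2CLC markers Duxf3 and Zscan4c were 85.9 times and 174 times higher in the GFP-positive cells, and Zfp352 was 518 times higher. The feeder markers Col1a1, Col1a2, Col3a1, Thy1, Fbn1 and Postn were detected in every group, and their levels are given beside the results they moved with.

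The pair lies in tandem on chromosome 16 of mm10, on the + strand, with 9670 bases between the genes. Dppa4 (ENSMUSG00000058550.15) spans chr16:48283733-48294237 and Dppa2 (ENSMUSG00000072419.5) spans chr16:48303908-48319723, and no annotated gene overlaps either of them. Each gene has a coding exon of 196 bases near its 3′ end, exon 7 of transcript Dppa2-202 (chr16:48317288-48317483) and exon 6 of Dppa4-202 (chr16:48292911-48293106). These exons are shown because they let the reader see how far the members resemble each other and how far their reads can be told apart. The longest run that both hold at the same position is in capitals, and the exons are printed 5′ to 3′ from the mm10 sequence.
Dppa2 exon 7: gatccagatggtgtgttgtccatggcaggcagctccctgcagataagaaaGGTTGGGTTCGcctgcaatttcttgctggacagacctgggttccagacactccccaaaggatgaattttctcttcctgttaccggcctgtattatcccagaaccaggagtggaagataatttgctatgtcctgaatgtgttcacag
Dppa4 exon 6: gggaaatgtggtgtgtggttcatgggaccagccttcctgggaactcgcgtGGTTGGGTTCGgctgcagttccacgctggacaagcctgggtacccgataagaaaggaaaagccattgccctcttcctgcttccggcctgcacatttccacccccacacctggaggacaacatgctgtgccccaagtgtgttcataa
Without gaps, 121 of the 196 bases (61.7%) were identical, and the run in capitals was 11 bases long. Over all transcripts the longest run shared by the members was 12 bases. No 31-base word occurs in both, so a read of 100 or 150 bases that matches 1 member in full cannot match the other in full.

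**Figure D1:**
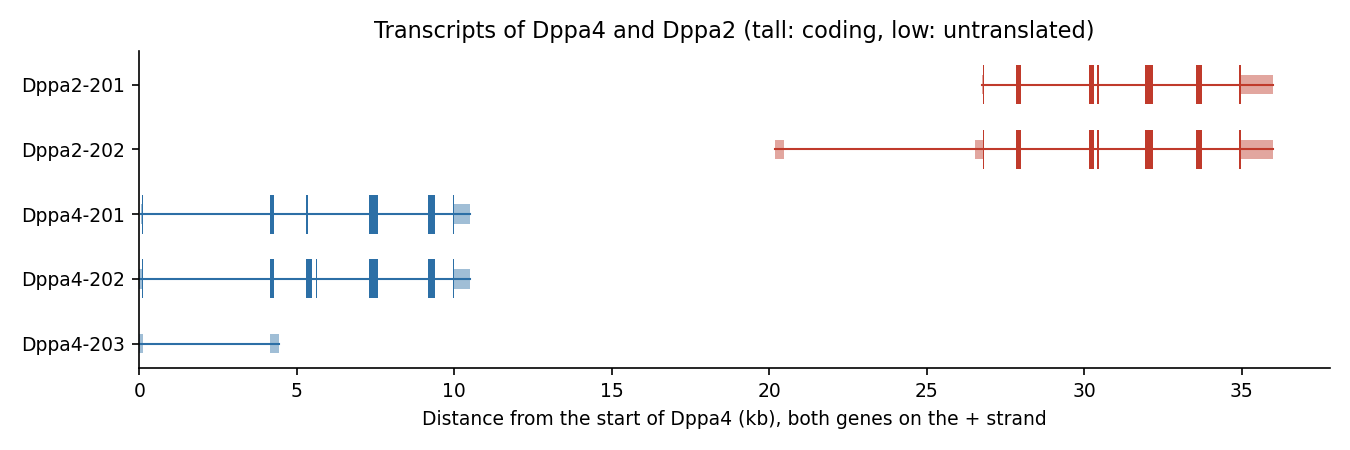
Transcripts of Dppa4 (blue) and Dppa2 (red) by distance in kb from the start of Dppa4, with coding parts tall and untranslated parts low. The genes follow each other on the same strand with 9670 bases between them, and both end in a long untranslated exon.

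The merged exons cover 2447 bases in Dppa2 and 1662 bases in Dppa4. The alignment did not allow introns, so a read was placed on a gene only if it lay within 1 exon. That leaves 1700 start positions for a read of 100 bases in Dppa2 and 1017 in Dppa4, and for a read of 150 bases 1363 and 757. Levels of the members are compared with each other below only per kb of these positions. The positions are counted for single reads, while the study's methods give reads from both ends of each fragment. Whether both ends fit was not counted, so the ratios per kb are approximate.

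By the rows of the genes themselves, Dppa4 was the more abundant member per kb in unsorted cells, and Dppa2 was in sorted 2CLCs. In the time course, the authors' mean normalized count of Dppa2 was 392 in DMSO at 24 h, 427 in dTAG at 24 h, 374 in DMSO at 7 d and 795 in dTAG at 7 d. Dppa4 stood at 715, 584, 656 and 977 in the same groups. Per kb, Dppa2 over Dppa4 was 0.328 in DMSO at 24 h, 0.437 in dTAG at 24 h, 0.341 in DMSO at 7 d and 0.487 in dTAG at 7 d. Both genes thus had their highest mean of the time course in dTAG at 7 d. In the washout experiment Dppa2 stood at 2278 in DMSO, 2056 in dTAG and 1979 in Recovery, and Dppa4 at 1774, 1437 and 1657. Their ratio per kb was 0.768, 0.856 and 0.714. In the sorting experiment Dppa2 stood at 437 in DMSO mESCs and 826 in dTAG mESCs, against 4063 in DMSO 2CLCs and 3922 in dTAG 2CLCs. Dppa4 stood at 516 and 651 in the mESCs and at 608 and 667 in the 2CLCs. The ratio per kb was therefore 0.470 and 0.704 in the mESCs and 3.71 and 3.26 in the 2CLCs.

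**Figure D2:**
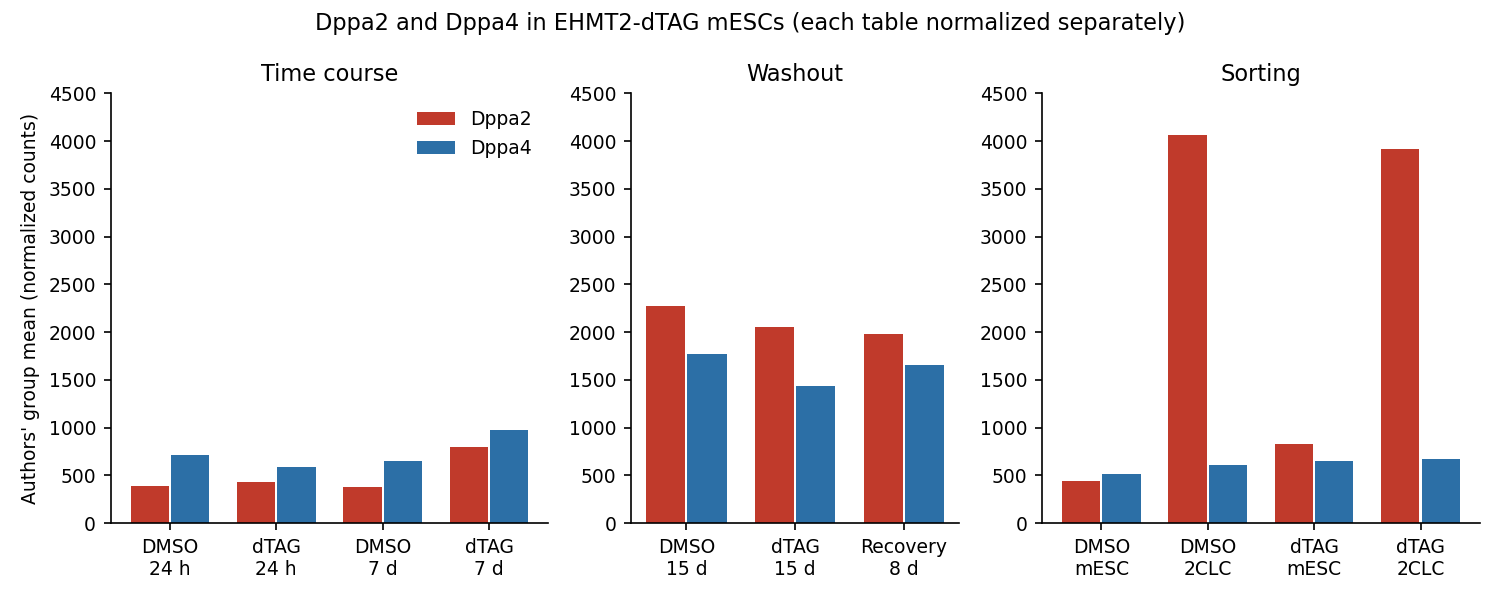
Authors' group means of normalized counts of Dppa2 (red) and Dppa4 (blue), linear axis from 0, in the time course, washout and sorting experiments. Dppa2 reaches 4063 and 3922 in the 2CLC groups, while Dppa4 stays between 516 and 667 in the 4 sorted groups.

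Across tables the levels can only be set side by side, since the experiments were normalized and in part sequenced separately. In CPM, Dppa2 was at 25.9 to 53.4 in the time course, 90.4 to 106 in the washout experiment, 49.9 and 94.9 in sorted mESCs and 417 and 340 in sorted 2CLCs. Dppa4 was at 40.0 to 65.5, 70.1 to 82.6, and 57.9 to 74.8 over all 4 sorted groups. From the lowest to the highest group the range of Dppa2 was thus much wider than that of Dppa4. No value of the spread between libraries was used for these groups, so neighbours in the order of levels cannot be told from each other by their spread.

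Loss of EHMT2 for 24 h left both members within 2-fold of the control. Dppa2 was 1.09 times the DMSO mean at 24 h and Dppa4 0.816 times, so 0 of the 2 members passed a 2-fold difference, against 5.7% of the 18451 genes with a mean of at least 10 in either group. At 7 d Dppa2 was 2.13 times the DMSO mean (log2 ratio 1.09) and Dppa4 was 1.49 times (log2 ratio 0.57). At that time 1 of the 2 members passed the 2-fold difference, against 9.95% of 18602 genes, and 95.1% of those genes had a lower ratio than Dppa2 and 89.1% a lower ratio than Dppa4. Between the DMSO groups of 7 d and 24 h Dppa2 differed by a log2 ratio of -0.071 and Dppa4 by -0.12, and 0 of the 2 members and 2.36% of genes passed 2-fold. In these unsorted cultures, a larger share of cells of a type and more RNA per cell cannot be told apart. All 6 feeder markers were also higher in dTAG than in DMSO at 7 d, and their sum was 152 CPM in dTAG and 101 in DMSO. Their part in the values of Dppa2 and Dppa4 was not tested.

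The 2C genes known to lie downstream of the pair differed by far more than the members themselves. At 24 h all 16 listed 2C genes had a higher mean in dTAG than in DMSO, with log2 ratios of 1.22 to 4.64 and a median of 3.10, where the median over all genes tested was 0.005. Of the 16, 6 reached a mean of 10 in dTAG only and 3 in neither group, so these ratios are a description. Over that interval neither member had passed 2-fold. At 7 d all 16 were higher in dTAG, with log2 ratios of 2.07 to 5.61 and a median of 4.22, and 8 of them reached a mean of 10 in dTAG only. Duxf3, a copy of the Dux transcription factor gene, went from 7.06 in DMSO to 32.7 in dTAG at 7 d, and Zscan4c, a telomere-associated zinc finger gene of a family with many near-identical copies, from 103 to 1912. Reads of the Zscan4, Usp17l and Tdpoz families cannot be assigned to a single copy with certainty. Of the 6 genes listed as regulators of the pair or of Dux, which include the SUMO ligase gene Pias4 and the maternal factor gene Nelfa, 0 passed 2-fold at 24 h, where 5.7% of genes did, or at 7 d, where 9.95% did. Nelfa was at 696 in DMSO and 967 in dTAG at 7 d, and Pias4 at 490 and 392.

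At 15 d the members were not higher without EHMT2, although the 2C genes were. Dppa2 was 0.902 times and Dppa4 0.810 times the DMSO mean after 15 d of dTAG, and 0 of the 2 members passed 2-fold, against 6.33% of 17869 genes. All 16 2C genes had a higher mean in dTAG in the same comparison, with a median log2 ratio of 4.48, and 8 of them reached a mean of 10 in dTAG only. The 2-fold difference of Dppa2 at 7 d of the time course thus had no counterpart at 15 d of the washout experiment, where the DMSO values, 106 CPM against 25.9 at 7 d, come from tables made separately. The difference between the experiments was not tested. After 8 d without dTAG, Dppa2 was 0.869 times and Dppa4 0.934 times the DMSO mean of 15 d. Again 0 of the 2 members passed 2-fold, where 2.85% of genes did. Recovery against dTAG gave 0.963 for Dppa2 and 1.15 for Dppa4, with 0 of 2 members and 8.42% of genes past 2-fold, while all 16 2C genes had a lower mean in Recovery, with a median log2 ratio of -3.88, 7 of them at a mean of 10 in dTAG only. The feeder markers differed here as well, with a sum of 176 CPM in dTAG, 125 in DMSO and 48.2 in Recovery, and their part was not tested.

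The largest differences of Dppa2 were between sorted 2CLCs and mESCs, and Dppa4 did not share them. In DMSO, Dppa2 was 9.28 times higher in 2CLCs (log2 ratio 3.21) and Dppa4 was 1.18 times higher (log2 ratio 0.23). In dTAG, Dppa2 was 4.74 times higher (log2 ratio 2.25) and Dppa4 was at 1.02 times its mESC mean (log2 ratio 0.035). In each of these comparisons 1 of the 2 members passed 2-fold. The sort separated many genes, since 26.4% of 18303 genes passed 2-fold in DMSO and 23.6% of 18244 in dTAG, and 93.3% and 91.4% of genes had a lower ratio than Dppa2. When the groups were instead scaled to equal totals over genes, the log2 ratio of Dppa4 became 0.081 in DMSO and -0.37 in dTAG, so its direction between 2CLCs and mESCs depended on the scaling, while that of Dppa2 was 3.06 and 1.84. The ratio of Dppa2 to Dppa4 within a group does not depend on the scaling. By counts it was 7.90 times higher in 2CLCs than in mESCs in DMSO and 4.63 times higher in dTAG.

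Within the sorted mESCs, dTAG had 1.89 times the Dppa2 mean of DMSO (log2 ratio 0.92) and 1.26 times the Dppa4 mean (log2 ratio 0.34), and 0 of the 2 members passed 2-fold, against 8.51% of 17142 genes. Within the 2CLCs the values were 0.965 times for Dppa2 and 1.10 times for Dppa4, with 0 of 2 members and 9.03% of 18281 genes past 2-fold. Whether the dTAG response of Dppa2 differs between mESCs and 2CLCs was not tested. The smaller step of Dppa2 from mESC to 2CLC in dTAG thus went with a higher mean in dTAG mESCs, 826 against 437, at nearly equal means in the 2CLCs. All 16 2C genes had a higher mean in dTAG than in DMSO in mESCs, with a median log2 ratio of 3.67, and 12 of the 16 did in 2CLCs, with a median of 0.90. The median over all genes tested was 0.008 in mESCs and 0.0085 in 2CLCs. In mESCs, 7 of the 16 reached a mean of 10 in dTAG only and 1 in neither group, so these ratios are a description. The 2CLC markers Duxf3, Zscan4c, Zscan4d, Zfp352 and Tcstv3 summed to normalized counts of 422 in DMSO mESCs and 4248 in dTAG mESCs, against 78173 and 115765 in the 2CLCs. The feeder markers summed to 41.5 CPM in DMSO mESCs, 86.7 in dTAG mESCs, 103 in DMSO 2CLCs and 150 in dTAG 2CLCs. The part of these other cells in the Dppa2 values was not tested.

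Among the listed genes around the pair, Nelfa followed the sort as Dppa2 did, with 396 in DMSO mESCs and 7317 in DMSO 2CLCs, a fold of 18.5. It was 1 of the 6 listed regulators past 2-fold between 2CLCs and mESCs in DMSO, where 26.4% of genes passed, and the 1 of 6 in dTAG, where 23.6% did, at a fold of 17.4. All 16 2C genes had a higher mean in 2CLCs in DMSO and in dTAG, with median log2 ratios of 7.44 and 4.77. Of the 16, 8 reached a mean of 10 in 2CLCs only in DMSO and 1 in dTAG, so these ratios are a description. The 16 include the genes used above as 2CLC markers. Of the genes that share the Dppa name without belonging to the family of the pair, Dppa3, a maternal factor that protects DNA methylation, was at 10.4 and 132 in DMSO mESCs and 2CLCs, Dppa5a, an RNA-binding pluripotency protein, at 1777 and 1408, and Dppa1 was at 0 in all 4 sorted groups. None of the 8 listed COMPASS and Polycomb subunits, chromatin complexes reported with the pair, passed 2-fold between 2CLCs and mESCs, against the same 26.4% of genes in DMSO and 23.6% in dTAG. Of the pluripotency genes, 3 of 6 were lower in 2CLCs past 2-fold in DMSO, against 9.42% of all genes, and 3 of 6 in dTAG, against 7.55%. Those 3 were Sox2, Klf4 and Esrrb in both treatments, while Pou5f1 and Zfp42 stayed within 2-fold and Nanog was 1.41 times higher in 2CLCs in DMSO and 1.31 times higher in dTAG. Sox2 was at 11238 in DMSO mESCs and 3736 in DMSO 2CLCs. The lineage and germline genes with promoters bound or kept unmethylated by the pair differed between treatments. Sox17, Foxa2, Nkx2-5 and Gata6 were higher in 2CLCs past 2-fold in both, Syce1 in DMSO and Gata4 in dTAG. That is 5 of the 9 with a mean of at least 10 in DMSO, against 17% of all genes. In dTAG it is 5 of 8, against 16%. Foxa2 reached a mean of 10 in 2CLCs only in both treatments, and Sox17 in DMSO (85.8 against 9.36), so their ratios are a description. Eomes had log2 ratios of -1.20 in DMSO and 0.73 in dTAG, and Pax6 -0.49 and -1.25.

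**Figure D3:**
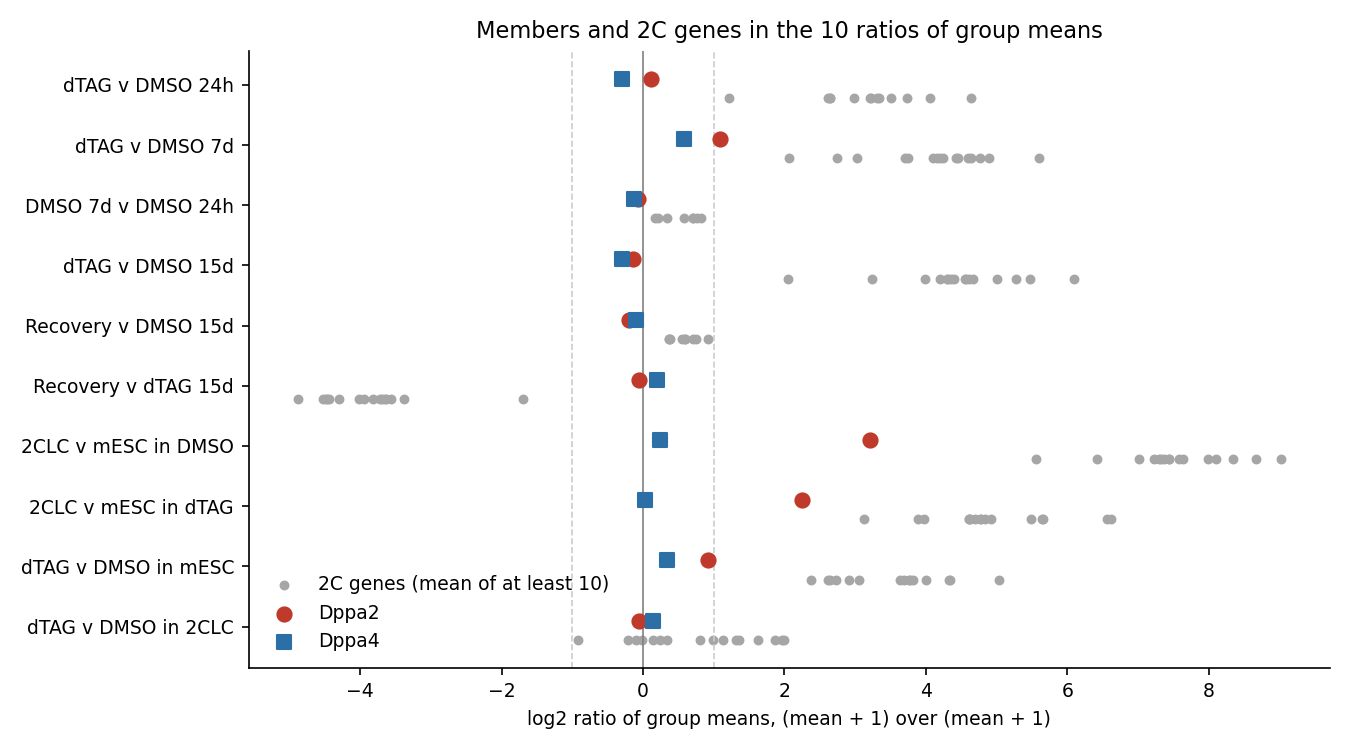
Log2 ratios of group means for Dppa2 (red circles), Dppa4 (blue squares) and the listed 2C genes with a mean of at least 10 (grey), in the 10 ratios between groups; dashed lines mark 2-fold. Dppa2 lies past 2-fold at 7 d of dTAG and in both 2CLC against mESC ratios, and Dppa4 lies within 2-fold in all 10.

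The Dppa4 experiment gave a value for each library. In WT cells in DMSO, the normalized count of Dppa4 was 700, 868 and 920 in replicates 1 to 3 (mean 829.8 ± 115 SD, n = 3), and in UNC0638 it was 726, 775 and 772 (mean 758 ± 27.1 SD, n = 3). In all 6 Dppa4 KO libraries Dppa4 had 0 reads, as their label says. A count of 0 allows up to 3 reads per library, worth 2.62 to 3.48 normalized counts in these libraries, for counting error only. Against that floor Dppa4 was at least 263-fold lower in KO than in WT in DMSO and at least 264-fold lower in UNC0638.

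Dppa2 was expressed in cells without Dppa4 reads. In WT cells its normalized count was 767, 855 and 804 in DMSO (mean 809 ± 44.2 SD, n = 3) and 640, 739 and 666 in UNC0638 (mean 682 ± 51.3 SD, n = 3). In Dppa4 KO cells it was 1008, 1214 and 1223 in DMSO (mean 1148 ± 122 SD, n = 3) and 737, 722 and 953 in UNC0638 (mean 804 ± 129 SD, n = 3). In DMSO all 3 KO libraries lay above all 3 WT libraries. In UNC0638 the groups overlapped, with KO libraries 1 and 2 inside the range of the WT libraries and KO library 3 above it. In both genotypes the UNC0638 libraries lay below all DMSO libraries of that genotype.

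**Figure D4:**
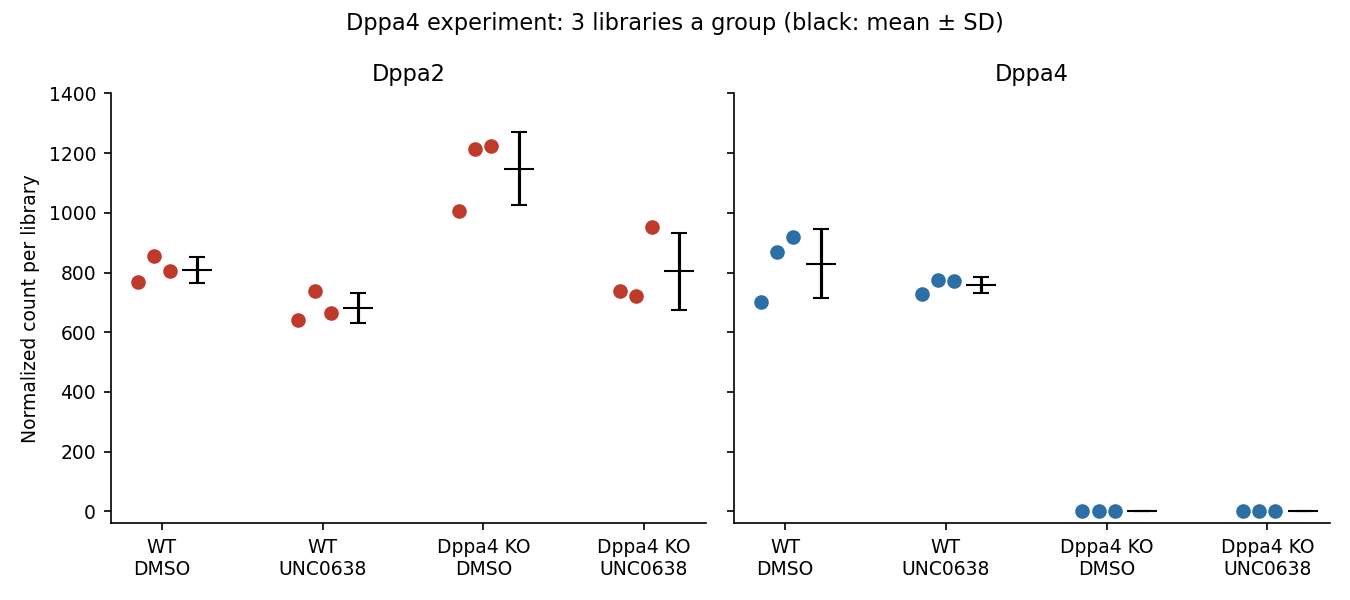
Normalized counts of Dppa2 (left) and Dppa4 (right) in the 12 libraries of the Dppa4 experiment, with the mean and SD of each group of 3 in black. Dppa4 is at 0 in the 6 KO libraries, and Dppa2 is between 1008 and 1223 in Dppa4 KO in DMSO against 767 to 855 in WT in DMSO.

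These differences of Dppa2 were modest and did not pass the test. In limma over 17258 genes with Benjamini-Hochberg adjustment, Dppa2 was higher in KO than in WT in DMSO by 0.50 (SE 0.16) on the log2 scale, with adjusted p = 0.0688. In UNC0638 the difference was 0.23 (SE 0.16) with limma adjusted p = 0.446. Dppa4 was called (adjusted p below 0.05 and at least 2-fold) in each treatment, an outcome set by its disruption and thus no finding. Dppa2 was not called between KO and WT in either treatment, where 4.43% of genes were called in DMSO and 3.29% in UNC0638. UNC0638 against DMSO gave a log2 difference of -0.25 (SE 0.16) in WT, with limma adjusted p = 0.599, and of -0.52 (SE 0.16) in KO, with limma adjusted p = 0.132. The effects of UNC0638 on Dppa2 in the genotypes differed by -0.27 (SE 0.23), KO minus WT, with limma adjusted p = 0.806. Dppa4 in WT differed by -0.12 (SE 0.36) between UNC0638 and DMSO, with limma adjusted p = 0.925. None of the members was called for UNC0638 in WT, where limma called 0% of genes, or in KO, where it called 0.464%. In WT limma and edgeR called 0 genes for UNC0638 and DESeq2 called 14, and 1504 genes had an unadjusted limma p under 0.05. For the difference of the UNC0638 effects limma, edgeR and DESeq2 called 0 genes (0%), and 1076 genes had an unadjusted limma p under 0.05. Dppa2 was not called between KO and WT in DMSO in any setting, since its difference stayed under 2-fold, but its adjusted p passed 0.05 in some. DESeq2 gave adjusted p = 0.0202 with a log2 difference of 0.51, and leaving out replicate 3 of the KO libraries in UNC0638 gave limma adjusted p = 0.0298.

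In WT cells Dppa4 was the more abundant member per kb by the rows of the genes themselves. Dppa2 over Dppa4 per kb was 0.608, 0.547 and 0.485 in the DMSO libraries and 0.489, 0.530 and 0.479 in the UNC0638 libraries, and the groups overlapped. Within DMSO the highest ratio came from the library with the lowest Dppa4 count.

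Of the 16 listed 2C genes, 13 had 0 reads in all 6 Dppa4 KO libraries, and each of the 16 had reads in WT. The other three were Usp17la, with 3.49 normalized counts in 1 KO library, Sp110, with 5.80 in 1 KO library, and Arg2, an arginase gene, with 3.23 to 15.7 in the KO libraries and 4.65 to 17.6 in WT. Zscan4c had normalized counts of 31.4, 107 and 622 in WT in DMSO, 188, 221 and 1856 in WT in UNC0638, and 0 in all 6 KO libraries. The WT libraries of either treatment thus differed widely among themselves, and replicate 3 was the highest in both. The expression filter kept 12 of the 16, most of them through the WT libraries alone, so the calls between KO and WT describe these genes and are no further support. Zscan4a to Zscan4f and Usp17lc were called lower in KO in both treatments, and Zfp352, Tdpoz3, Usp17la and Sp110 in UNC0638. Arg2 was not called, with limma adjusted p = 0.452 in DMSO and 0.590 in UNC0638. For UNC0638 against DMSO 0 of the 12 were called in WT, where 0% of all genes were, and 0 in KO, where 0.464% were. In WT all 12 were higher in UNC0638, with a median log2 difference of 2.08, where the median over all genes was -0.001. Zfp352 passed the filter through the WT UNC0638 libraries alone (16.7, 12.1 and 47.9, against 0, 0 and 6.12 in WT in DMSO). This shared direction is therefore a description and no further support. Of the lineage and germline genes known to have promoters occupied or protected by the pair, 6 were tested. Syce1, a synaptonemal complex gene, and Hand1, a mesoderm transcription factor gene, were called lower in KO in both treatments. Of all genes, 3.1% were called lower in DMSO and 2.31% in UNC0638. Syce1 and Hand1 passed the expression filter through the WT libraries alone, so these calls describe them and are no further support. Of the 6, 2 were higher in KO in DMSO (Gata4 and Eomes) and 1 in UNC0638 (Gata4), and neither was called. Syce1 had 52.4, 36.9 and 67.3 normalized counts in WT in DMSO and 61.6, 54.2 and 99.8 in WT in UNC0638, against 2.94 in 1 KO library and 0 in the other five. Hand1 had 17.5, 102 and 119 in WT in DMSO and 9.69, 111 and 106 in WT in UNC0638, and at most 2.04 in KO. Dppa3 was called lower in KO in both treatments. In DMSO it had 38.4, 83.6 and 401 in WT and 4.89, 7.13 and 3.48 in KO, with limma adjusted p = 0.00667. In UNC0638 it had 26.4, 49.5 and 224 in WT and 8.28, 8.60 and 2.62 in KO, with limma adjusted p = 0.0287. Dppa3 also passed the expression filter through the WT libraries alone, so its calls are a description and no further support. Of the 6 regulators upstream and the 8 COMPASS and Polycomb subunits, 0 were called between KO and WT, against 4.43% of genes in DMSO and 3.29% in UNC0638. For UNC0638 none of them was called either, in WT with 0% and in KO with 0.464% of genes called.

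The cultures of the genotypes also differed in other ways. Klf4, a pluripotency factor gene, was the 1 of 6 pluripotency markers called higher in KO in DMSO, against 1.33% of all genes, with 1617, 1100 and 1165 normalized counts in WT and 2639, 2700 and 2359 in KO. The feeder markers summed to 187 to 280 CPM in the 6 WT libraries and 112 to 154 in the 6 KO libraries. Their part in the Dppa2 values was not tested.

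The tables hold rows for genes whose sequence matches the members in part. Processed pseudogenes are intronless copies of a transcript, and 4 of them share at least 100 of their 31-base words with Dppa2 and 2 with Dppa4. Gm9788 (chr19:41459813-41460718) holds 30.7% of the words of Dppa2 and Gm8023 (chr1:178266204-178267106) holds 22.5%, and Gm14058 (chr2:122214620-122215354) holds 28.7% of those of Dppa4 and Gm5501 holds 20.7%. The rows of Gm9298 and Gm12874, the other copies of Dppa2, were at 0 in the Dppa4 experiment and had means of at most 10.8 elsewhere. Gm14058 had 390, 496 and 533 normalized counts in WT in DMSO and 365, 418 and 457 in WT in UNC0638, and 0 in all 6 Dppa4 KO libraries. Gm5501 had 57.0 to 95.3 in the 6 WT libraries and 0 in the same 6 KO libraries. The counts of both copies were thus absent where the Dppa4 gene had been disrupted, although their rows stand for loci on other chromosomes. Whether those counts came from reads of Dppa4 was not tested. Against the floor of 3 reads per library Gm14058 was at least 150-fold lower and Gm5501 at least 23.5-fold lower in KO in DMSO.

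The row of the gene itself held 43.8% to 44.7% of the summed counts of Dppa4 and its copies in the time course, 59.5% to 60.0% in the washout experiment, 56.0% to 61.1% in the sorted groups and 58.7% to 62.7% in the WT libraries. For Dppa2 the corresponding shares were 45.1% to 47.9%, 54.6% to 55.3%, 44.2% to 52.5% and 41.6% to 59.3% over the 12 libraries. Gm9788 followed Dppa2 across the sort, with 532 in DMSO mESCs, 4679 in DMSO 2CLCs, 716 in dTAG mESCs and 4543 in dTAG 2CLCs. At 7 d of dTAG, Gm9788 was 2.05 times and Gm8023 1.96 times its DMSO mean, Gm14058 1.44 times and Gm5501 1.54 times. Summed with its copies, Dppa2 had a log2 ratio of 3.17 between 2CLCs and mESCs in DMSO, 2.45 in dTAG and 0.67 for dTAG against DMSO in mESCs, a choice made after seeing the data. In the Dppa4 experiment the sum of Dppa2 and its copies differed by 0.42 (SE 0.15) between KO and WT in DMSO, with limma adjusted p = 0.0982. By counts, Dppa2 over Dppa4 in the washout experiment was 1.28 in DMSO, 1.43 in dTAG and 1.19 in Recovery. With the copies added to both it was 1.40, 1.57 and 1.29. In the time course it was 0.549 to 0.814 without the copies and 0.535 to 0.759 with them. No ratio per kb was made for the sums, so the order of the members per kb holds for their own rows alone.

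**Figure D5:**
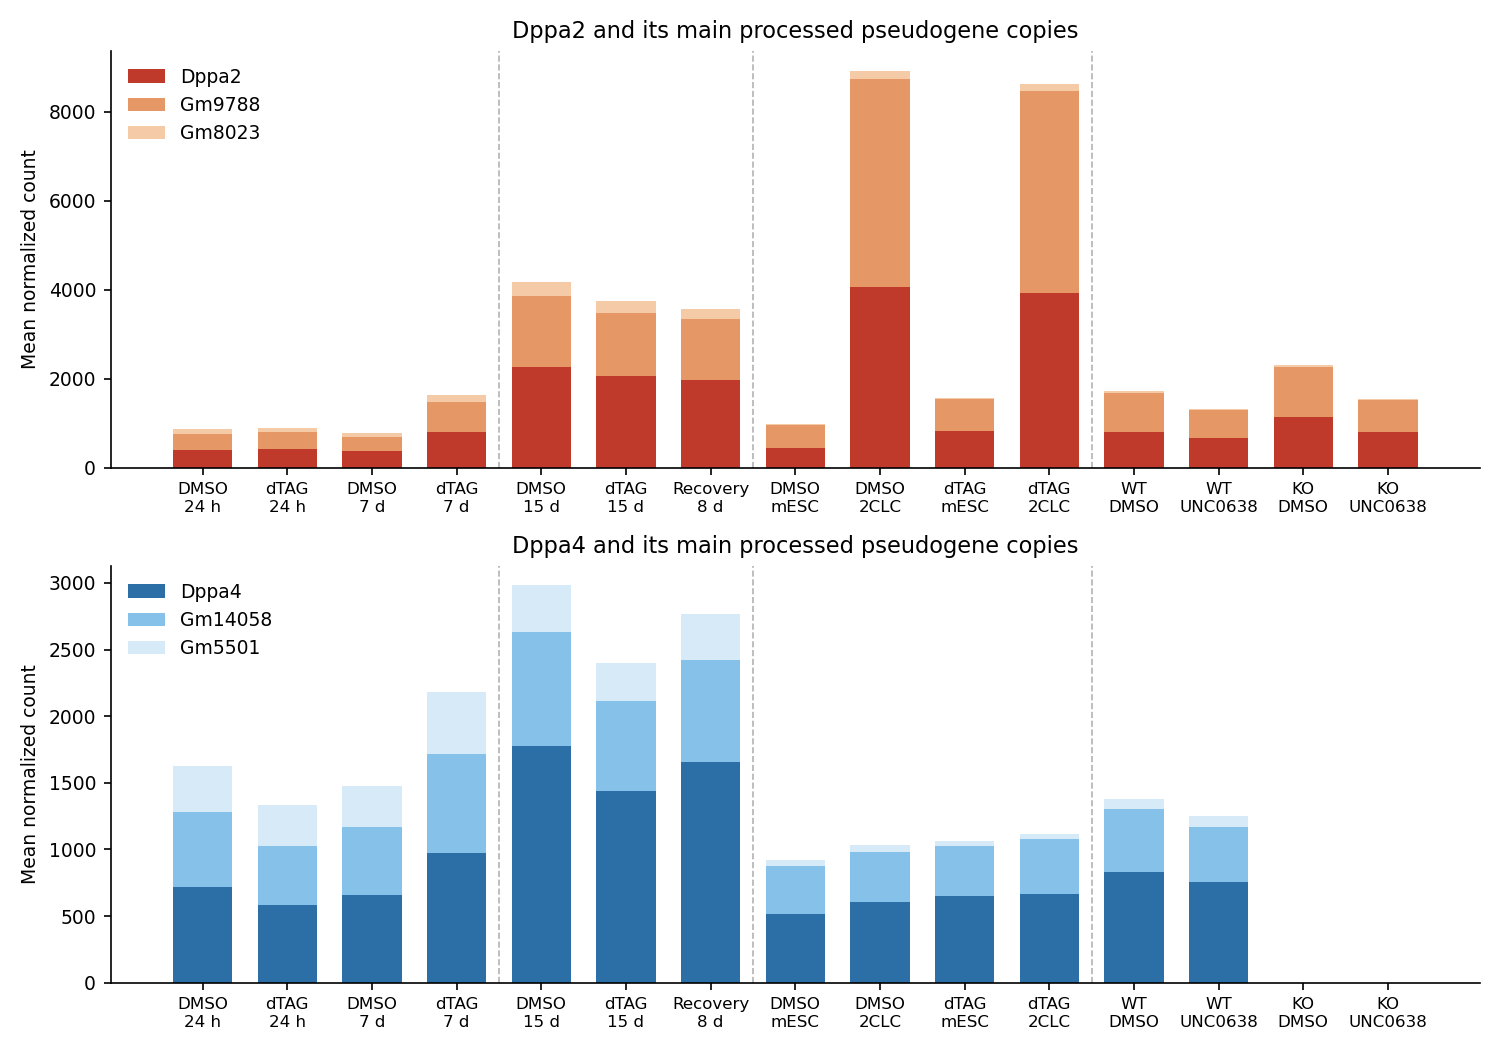
Stacked mean normalized counts of Dppa2 (top) and Dppa4 (bottom) with their 2 most similar processed pseudogene copies, in the 15 groups, with dashed lines between separately normalized tables. The copies of Dppa4 are at 0 in the KO groups with the gene itself, and Gm9788, at 4679 and 4543, is higher than Dppa2 in the 2CLC groups.

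Of the other genes within 500 kb of the pair, Morc1, a germline gene needed for transposon silencing, lies downstream of Dppa2. Its mean was 209 and 188 in DMSO and dTAG at 24 h, 156 and 255 at 7 d, and 110 and 209 at 15 d. In the sort it was lower in 2CLCs, 19.0 against 43.4 in DMSO and 28.1 against 68.0 in dTAG, the opposite direction to Dppa2. In the Dppa4 experiment Morc1 had 30.6 to 48.8 normalized counts in KO in DMSO and 74.2 to 134 in KO in UNC0638, a log2 difference of 1.33 (SE 0.32) with limma adjusted p = 0.065. In WT it had 39.3 to 47.7 in DMSO and 68.2 to 83.6 in UNC0638, a log2 difference of 0.79 (SE 0.32) with limma adjusted p = 0.563, and in both genotypes all UNC0638 libraries lay above all DMSO libraries. The processed pseudogenes Gm7204 and Gm8670 were the other neighbours with counts above 10. Gm7204 had 356, 458 and 421 normalized counts in WT in DMSO and 183, 225 and 266 in KO in DMSO. The log2 difference was -0.88 (SE 0.21), short of 2-fold, with limma adjusted p = 0.0217. In UNC0638 it was -0.17 (SE 0.21) with limma adjusted p = 0.436. Between KO and WT, limma adjusted p was 0.691 and 0.646 for Morc1 in DMSO and UNC0638, and 0.927 and 0.134 for Gm8670. Gm7275, Gm17804, 6430553K19Rik, Gm49770, Gm49771, Gm5485, n-R5s36, Trat1 and Retnlb had a mean of at most 2.23 in any of the 11 groups and at most 0.934 in any of the 12 libraries.

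Across the 11 group means of the time course, washout and sorting experiments, centred within each experiment, the genes most like Dppa2 among 11100 others were Gm8023 (r = 0.993), Gm9788 (r = 0.991), Polr2l (r = 0.989), Ctr9 (r = 0.986) and Avpi1 (r = 0.984). The first 2 are the copies described above and share part of its sequence. Ctr9, a subunit of the PAF1 elongation complex, stood at 301 in DMSO mESCs, 1464 in DMSO 2CLCs, 451 in dTAG mESCs and 1172 in dTAG 2CLCs. For Dppa4 the most alike were Sdhaf2 (r = 0.982), Med6 (r = 0.953), Gm14058 (r = 0.944), Eif4a1 (r = 0.943) and Pdss1 (r = 0.938). The correlation between the members was 0.494, and Dppa2 came at rank 1607 among the genes most like Dppa4 and Dppa4 at rank 2709 among those most like Dppa2. Over the 12 libraries of the Dppa4 experiment the genes most like Dppa2 among 17257 were Qprt (r = 0.957), Psmd3 (r = 0.951), Tmbim6 (r = 0.942), Apobec3 (r = 0.932) and Def6 (r = 0.932). Qprt, an enzyme gene of NAD synthesis, had 250, 278 and 265 normalized counts in WT in DMSO, 161, 216 and 224 in WT in UNC0638, 378, 470 and 439 in KO in DMSO and 235, 264 and 378 in KO in UNC0638. These correlations are descriptions of points that share libraries, scaling and groups.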

How the data were processed

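Reads were trimmed with Trim Galore 0.6.7 and aligned to mm10 with STAR 2.7.10 by the authors, with introns not allowed and each read that fits many places written to 1 of them at random, and were counted for GENCODE vM25 genes and repeats with TEcounts at default settings; its strand setting is not given in the sources used here. The deposited signal columns are counts divided by DESeq2 1.34.0 size factors: means of 3 libraries in the degron experiments, and values per library for the Dppa4 experiment. Further deposited columns hold the authors' fold changes, p-values and class assignments and were not used.

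Whole reads were recovered for 100% of the per-library values (tolerance 0.001 reads). The Dppa4 experiment was fitted in R 4.3.3 with limma 3.58.1 (trend, empirical Bayes) on log2(normalized count + 1) in 1 model of 4 groups, over the 17258 genes kept by the expression filter of edgeR 4.0.16, with Benjamini-Hochberg adjustment within each contrast. The added 1 understates fold changes of low genes. Genes were called at adjusted p below 0.05 and at least 2-fold. Group means were compared as log2 of (mean + 1) over (mean + 1), with no test. Alternatives were edgeR and DESeq2 1.42.0 on whole reads, a block for the replicate number, each library left out, and changed scaling, filter, pseudocount or threshold. The fit was tested on simulated data with 1 dispersion for all genes (0.077) and 100 genes planted at each fold. Of the planted 2-fold changes it called 20% for UNC0638 in WT, 11% for UNC0638 in KO and 23% between KO and WT in DMSO. Of the planted 4-fold changes it called 99%, 100% and 96%. A difference of 2-fold, which lies at the threshold itself, can thus go uncalled in this fit. These shares hold for the dispersion simulated. The pooled SD of Dppa2 between replicates was 0.15 on the log2 scale, and no simulation was made at its spread.

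The members and gene lists were chosen with earlier results of these data known. Named were the members, the listed genes, annotated genes within 500 kb, and the 5 genes most like each member by Pearson r (mean of at least 50 in every experiment for group means). Copies were processed pseudogenes sharing at least 100 words of 31 bases with a member's transcripts, a search added after seeing the data. Gene positions and exons came from GENCODE vM21 on mm10, in which 54349 of the 55401 identifiers were found.

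Replicates of the Dppa4 experiment are 3 clones of each genotype. Same-numbered WT libraries of DMSO and UNC0638 deviated together from their group means (correlations of 0.103 to 0.431 over genes). The same-numbered KO libraries did not (-0.0923 to 0.154). The main fit took no account of pairing, which entered only in the alternatives with a replicate block. With the block within genotype, Dppa2 for UNC0638 in WT differed by -0.25 (SE 0.13, limma adjusted p = 0.442).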

Additional observations from a re-analysis of the deposited data

How the results depend on the processing

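The members had 602 to 1191 reads in the libraries of the Dppa4 experiment that hold them. For the other experiments no spread between libraries was used, and no paired analysis was possible there because the values are group means. With the replicate block, counts of calls for UNC0638 in KO went from 80 to 172, and to 155 with the replicate block within genotype, and the difference of Dppa2 between KO and WT in DMSO, 0.50, had limma adjusted p = 0.0361; the block changed no call in WT, where the numbers pair the libraries. Same-numbered KO libraries did not deviate together, so the blocked values of KO share only a number.

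Without the block, the value of Dppa2 between KO and WT in DMSO also passed the test with DESeq2 (0.51, adjusted p = 0.0202), and with scaling by library totals (0.52, limma adjusted p = 0.0484), and Dppa2 for UNC0638 in KO passed it with DESeq2 (-0.51, adjusted p = 0.0416). None of these reached 2-fold, and the cause was not tested. Left-out libraries gave 0.45 to 0.59 for Dppa2 between KO and WT in DMSO, past the test only without KO UNC0638 replicate 3 (limma adjusted p = 0.0298).

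Genes called for UNC0638 in KO were 37 with edgeR, 285 with DESeq2, 12 without the filter and 4 at adjusted p under 0.01, and 2 to 365 when 1 library was left out, 365, 2 and 31 without KO UNC0638 replicates 1, 2 and 3, 25, 25 and 23 without those of WT UNC0638, and 20 and 43 without KO DMSO replicates 1 and 2. DESeq2 called 14 genes for UNC0638 in WT and 868 between KO and WT in UNC0638. At adjusted p under 0.01, 258 and 175 genes were called between KO and WT in DMSO and in UNC0638. Leaving out 1 library gave 286 to 969 and 190 to 665 genes in these comparisons, with 286, 431 and 369 without WT DMSO replicates 2 and 3 and KO DMSO replicate 1, and 190 and 194 without WT UNC0638 replicates 2 and 3, and 0 to 1 for UNC0638 in WT and for the difference of the effects.

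Scaling to equal totals over genes moved the sorted values: Dppa2 between 2CLCs and mESCs to 3.06 in DMSO and 1.84 in dTAG, Dppa4 to 0.081 and -0.37, and dTAG against DMSO in 2CLCs to -0.29 for Dppa2 and -0.11 for Dppa4; that scaling shifts all genes by -0.15, -0.40 and -0.24. With the copies added, a choice made after seeing the data, Dppa2 moved to 2.45 between 2CLCs and mESCs in dTAG and to 0.67 for dTAG in mESCs. With a mean of at least 50, the shares of genes past 2-fold fell to 2.56% at 24 h, 5.4% at 7 d, 0.957% between the DMSO groups, 3.66% for dTAG at 15 d, 1.83% and 5.12% for Recovery against DMSO and dTAG, 4.43% in mESCs and 5.31% in 2CLCs.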
